A study of Mus musculus with 6 samples.

Results

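The 9 genes described here encode components of the hemidesmosome and of its laminin ligands: the laminin chains Lama3, Lamb3 and Lama5, the integrin subunits Itga3, Itga6, Itgb1 and Itgb4, the transmembrane collagen Col17a1 and the plaque protein Dst. They were chosen by gene symbol among the 23377 rows of a gene count table, and all 9 were found and tested. The table holds RNA-seq counts of sorted hair follicle stem cells from C57BL/6 mice, with 2 libraries of the genotype Ring1a/b-/- and 2 libraries of wild-type cells (WT). Either Ring1a or Ring1b serves as the catalytic subunit of Polycomb repressive complex 1 (PRC1), which keeps developmental genes silent through histone H2A ubiquitination, and the comparison asks which transcripts differ between cells with the double deletion and wild-type cells. Each sample was 3000 sorted cells processed by SMART-seq2, which copies polyadenylated RNA along its length and amplifies it by PCR. The age of the mice, the driver of the deletion and whether replicates were separate animals are not given in the labels, so the p-values speak only for the spread among these 4 libraries, which may be technical.

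Basal cells of the epidermis and of the hair follicle are anchored to the basement membrane by hemidesmosomes. In these, integrin alpha6-beta4 and Col17a1 span the membrane, and the plaque proteins Dst (BP230) and plectin tie them to the keratins Krt5 and Krt14. Outside the cell, alpha6-beta4 binds laminin-332, which holds the chains encoded by Lama3 and Lamb3, and laminin-511, whose alpha chain is encoded by Lama5. The integrin alpha3-beta1 binds the same laminins and connects to actin. Col17a1 and the alpha6 and beta1 integrins are also well known from hair follicle stem cells, Col17a1 for their maintenance and alpha6 as a surface marker for sorting them.

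RefSeq start sites on build GRCm38.p6 were found for 6 of the 9 genes. The 250 bases upstream of a start are shown for Dst and Col17a1, because the groups of these genes did not overlap and because Dst has more than 1 listed start, whose transcripts the table counts together. Capitals mark CG dinucleotides, which read the same on both strands and are dense in the promoters that PRC1 is known to occupy in mouse cells. The window of the upstream Dst start spans chr1:34011345-34011594 on the plus strand, that of the downstream Dst start chr1:34160010-34160259 on the plus strand, and that of the Col17a1 start chr19:47692043-47692292 on the minus strand.
Dst upstream start: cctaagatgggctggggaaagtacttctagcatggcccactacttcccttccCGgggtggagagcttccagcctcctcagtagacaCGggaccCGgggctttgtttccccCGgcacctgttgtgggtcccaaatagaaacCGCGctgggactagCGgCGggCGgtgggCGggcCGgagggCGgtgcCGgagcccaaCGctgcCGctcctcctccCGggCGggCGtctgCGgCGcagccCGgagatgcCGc
Dst downstream start: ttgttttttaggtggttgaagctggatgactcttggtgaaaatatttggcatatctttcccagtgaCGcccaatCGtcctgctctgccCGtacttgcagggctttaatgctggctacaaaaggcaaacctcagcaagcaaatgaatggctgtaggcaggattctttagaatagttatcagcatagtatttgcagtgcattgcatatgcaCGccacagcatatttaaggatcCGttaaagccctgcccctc
Col17a1 start: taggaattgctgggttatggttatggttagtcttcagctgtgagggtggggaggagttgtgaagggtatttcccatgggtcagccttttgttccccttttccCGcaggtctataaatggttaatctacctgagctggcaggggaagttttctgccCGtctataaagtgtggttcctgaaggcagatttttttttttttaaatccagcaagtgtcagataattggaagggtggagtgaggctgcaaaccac

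The upstream Dst window held 22 CG, a number that 14.8% of 32851 RefSeq start windows of the same length reach. The downstream Dst window held 5 (55.6% of windows hold at least as many) and the Col17a1 window 2 (81.2%), against a median of 6 over all windows. Of the other genes with a listed start, Itga3 had windows with 22 and 5 CG, Lamb3 windows with 2 and 3, and Itgb1 and Lama5 a window each with 21 and 19. These counts describe the sequence only: Ring1b binding at these genes was not analysed here, since the deposited peaks are on build mm9 and no mm9 gene annotation was used.

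Total counts were 4844381 and 7740945 in the Ring1a/b-/- libraries and 2785843 and 3056593 in the WT libraries. Counts were scaled to a common library size, as CPM on TMM-scaled totals, and tested with edgeR's quasi-likelihood test over 13134 genes with Benjamini-Hochberg adjustment, and a gene was called at an adjusted p under 0.05. The defining keratinocyte markers Krt5, Krt14 and Trp63 were abundant in every library, with sums of 979 and 875 CPM in Ring1a/b-/- and 1261 and 1063 CPM in WT libraries. The sum of 7 hair follicle stem cell markers was 1000 and 884 CPM in Ring1a/b-/- and 800.4 and 862 CPM in WT libraries. Its members did not all lie on the same side, with a log2 fold change above 0 for 5 of 7. Of these, Nfatc1 stood at 38.8 and 34 CPM in Ring1a/b-/- and 0 and 2.34 CPM in WT libraries. Sox9 stood at 172 and 156 CPM in Ring1a/b-/- and 49.4 and 95.1 CPM in WT libraries. Lgr5 stood at 251 and 240 CPM in Ring1a/b-/- and 140 and 193.5 CPM in WT libraries, Krt15 at 303 and 250.2 CPM in Ring1a/b-/- and 417 and 362 CPM in WT libraries, and Cd34 at 15.3 and 2.61 CPM in Ring1a/b-/- and 24.3 and 20.4 CPM in WT libraries. Markers of other cells differed between the groups. The sum of 12 leukocyte markers, 9 of them found in all 4 libraries and Cd207 at 0 in all, was 702 and 333 CPM in Ring1a/b-/- against 139 and 140 CPM in WT libraries. The 9 tested markers all had a log2 fold change above 0, but Csf1r and Coro1a overlapped between the groups. The sum of 8 fibroblast and dermal papilla markers, mostly Dcn, was 329 and 207.5 CPM against 641 and 791 CPM. Of these markers, Col1a1, Col1a2, Col3a1 and Postn overlapped between the groups. Pdgfra was higher in Ring1a/b-/-, at 6.66 and 12.2 CPM against 0.38 and 6.34 CPM. That of 8 endothelial and mural markers, mostly Acta2, was 12.5 and 47.4 CPM against 177 and 182 CPM. Emcn was at 0 in all libraries, and Pecam1 and Cdh5 were at 0 in WT replicate 1. The sum of 5 Merkel cell markers, mostly Krt8 and Krt18 with Atoh1 at 0.871 CPM or less in every library, was 65.4 and 96.5 CPM in Ring1a/b-/- against 7.97 and 27.7 CPM in WT libraries, that of 5 melanocyte markers 26.9 and 35.9 CPM against 45.9 and 72.8 CPM, and that of 4 Schwann cell markers 4.85 and 8.71 CPM against 5.32 and 7.34 CPM, with Sox10 at 0 in all. Such cells are known to express several of the laminin and integrin genes, and their part in the values below was not tested. In bulk libraries fewer cells of a type and less RNA per cell cannot be told apart.

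Lama3 had the largest difference of the 9 genes. It encodes the alpha3 chain, which carries the integrin-binding end of laminin-332. Lama3 stood at 146 and 175.5 CPM in the Ring1a/b-/- libraries, against 49.4 and 20.4 CPM in the WT libraries, from 725, 1410, 130 and 61 counts. Both Ring1a/b-/- libraries were far above both WT libraries, and the WT libraries differed from each other more than the Ring1a/b-/- libraries did. The means were 161 ± 20.6 CPM in Ring1a/b-/- and 34.9 ± 20.5 CPM in WT libraries (SD, n = 2 each), a log2 fold change of 2.21 ± 0.40 (SE) with a 95% interval of 1.31 to 3.12. The difference did not pass edgeR's test over all genes (edgeR adjusted p = 0.111). It passed without WT replicate 1, where the log2 fold change was 2.99 (edgeR adjusted p = 0.00826) and 0.18% of genes were called higher. It also passed with no low-count filter (edgeR adjusted p = 1.95e-09), where 2.42% of genes were called higher. Without WT replicate 2 it was 1.69 (edgeR adjusted p = 0.0511).

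Lamb3, the beta3 chain of the same laminin, stood at 39.6 and 32.1 CPM in Ring1a/b-/- and 33.8 and 24.4 CPM in WT libraries. The groups overlapped. The log2 fold change of Lamb3 was 0.30 ± 0.51 (edgeR adjusted p = 0.859), and its 95% interval of -0.85 to 1.46 covers a change in either direction. Lama5, the alpha chain of laminin-511, stood at 429 and 367 CPM in Ring1a/b-/- and 377 and 348 CPM in WT libraries, and these groups overlapped too. Its log2 fold change of 0.13 ± 0.18 (edgeR adjusted p = 0.806) had a 95% interval of -0.27 to 0.54, so that a change of the size seen for Lama3 lies outside it.

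The balance between the laminin chains within a library does not depend on library scaling. The count ratio of Lama3 to Lamb3 was 3.70 and 5.47 in the Ring1a/b-/- libraries, against 1.46 and 0.836 in the WT libraries. The ratio of Lama3 to Lama5 was 0.341 and 0.478 in Ring1a/b-/- and 0.131 and 0.0584 in WT libraries. Neither ratio overlapped between the groups. Ratios are given as a description, with no test. A ratio between genes of different length is not a ratio of molecules, and only its difference between libraries can be read. That difference still holds any trend of fold change with gene length. Tested genes with a span on the genome like that of Lama3 had a median log2 fold change of 0.32. For those with a span like that of Lamb3 and Lama5 it was 0.07. The part of this trend in the ratios was not tested.

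**Figure D1:**
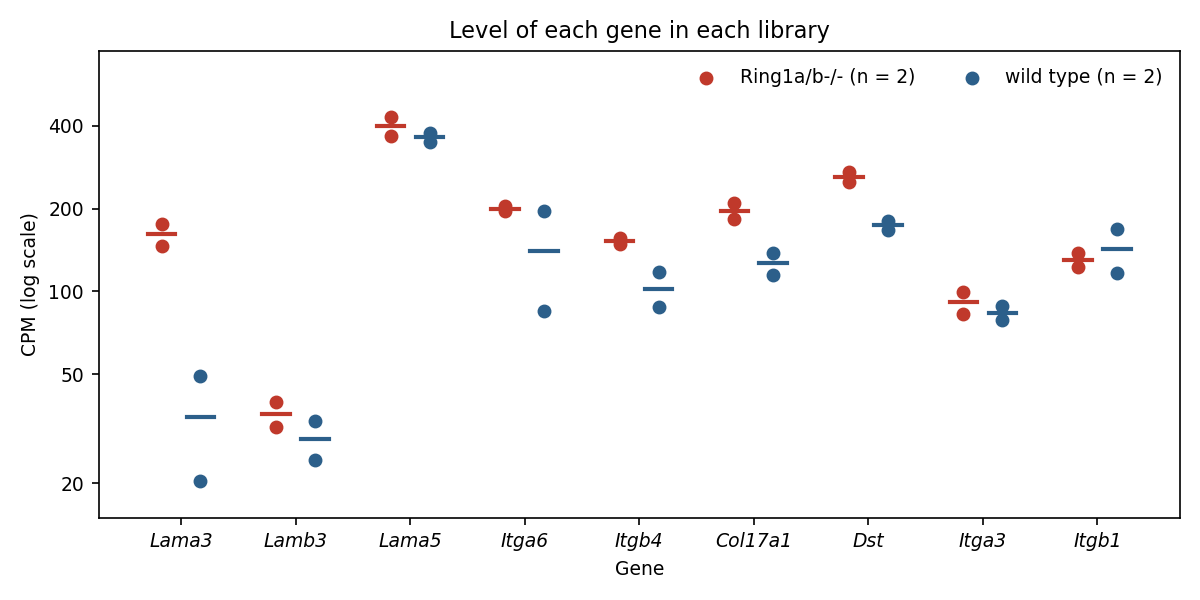
Level of each of the 9 genes in CPM (log axis) in each library, with Ring1a/b-/- in red and wild type in blue. Points are libraries and bars are means of 2 libraries. Lama3 is at 146 and 175.5 CPM in Ring1a/b-/- and at 49.4 and 20.4 CPM in WT libraries, and the points of Itgb4, Col17a1 and Dst are also apart between the groups.

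The membrane proteins and the plaque protein of the hemidesmosome came next in size. Itgb4, the beta subunit found in hemidesmosomes, stood at 157 and 148 CPM in Ring1a/b-/- and 117 and 87.4 CPM in WT libraries. Its groups did not overlap. The means were 153 ± 6.09 CPM in Ring1a/b-/- and 102 ± 21.1 CPM in WT libraries, with a log2 fold change of 0.58 ± 0.23 that did not pass (edgeR adjusted p = 0.268); the log2 fold change of Itgb4 was 0.36 without WT replicate 2 (edgeR adjusted p = 0.479) and 0.81 without WT replicate 1 (edgeR adjusted p = 0.209). Col17a1, the transmembrane collagen that is also an autoantigen of bullous pemphigoid, stood at 183 and 210.1 CPM in Ring1a/b-/- and 137.5 and 115 CPM in WT libraries. Both Ring1a/b-/- libraries were again the higher ones, and the means of Col17a1 were 197 ± 19 CPM in Ring1a/b-/- and 126 ± 15.8 CPM in WT libraries. Its log2 fold change of 0.64 ± 0.21 did not pass (edgeR adjusted p = 0.186).

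Dst, which encodes the plaque protein BP230 in epithelia and other isoforms in nerve and muscle, stood at 271 and 251 CPM in Ring1a/b-/- and 180 and 167 CPM in WT libraries. The groups did not overlap, and the libraries of a genotype lay within 0.112 of each other on the log2 scale in Ring1a/b-/- and 0.109 in WT. Dst averaged 261 ± 14.2 CPM in Ring1a/b-/- and 174 ± 9.31 CPM in WT libraries, a log2 fold change of 0.58 ± 0.18 that did not pass (edgeR adjusted p = 0.178). Which of its isoforms the reads came from cannot be read from counts per gene.

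Itga6, the partner of Itgb4 in hemidesmosomes, did not show this separation. It stood at 204 and 196 CPM in Ring1a/b-/- and 84.7 and 197 CPM in WT libraries. One WT library was as high as the Ring1a/b-/- libraries and the other far lower, so that the groups overlapped. The log2 fold change of Itga6 was 0.51 ± 0.34 (edgeR adjusted p = 0.528); it was 1.22 without WT replicate 2 (adjusted p = 0.0588) and 0.03 without WT replicate 1, so that a single library sets its size. The count ratio of Itga6 to Itgb4 was 1.30 and 1.32 in Ring1a/b-/- and 0.722 and 2.25 in WT libraries.

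The subunits of alpha3-beta1, the laminin receptor that connects to actin, gave small differences. Itga3 stood at 82.8 and 99.6 CPM in Ring1a/b-/- and 78.6 and 88.1 CPM in WT libraries, with a log2 fold change of 0.13 ± 0.26 (edgeR adjusted p = 0.885; 95% interval -0.47 to 0.73). Itgb1, which pairs with many alpha subunits, stood at 138 and 122 CPM in Ring1a/b-/- and 116 and 169 CPM in WT libraries, with a log2 fold change of -0.13 ± 0.24 (edgeR adjusted p = 0.875; 95% interval -0.69 to 0.43). The groups of both genes overlapped. The estimate of Itga3 turned to -0.02 without Ring1a/b-/- replicate 2, and that of Itgb1 turned to 0.14 without WT replicate 2. The count ratio of Itgb4 to Itgb1 was 1.13 and 1.21 in Ring1a/b-/- and 1.01 and 0.518 in WT libraries, with no overlap.

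**Figure D2:**
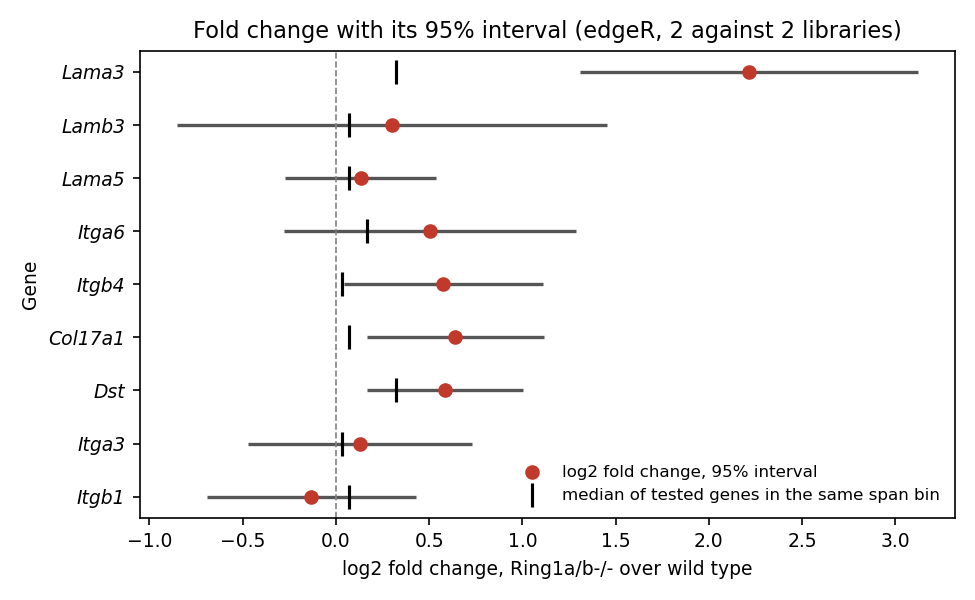
Log2 fold change of Ring1a/b-/- over wild type for the 9 genes (points) with 95% intervals from edgeR's quasi-likelihood fit (lines), and the median of all tested genes in the same bin of gene span (vertical ticks). The intervals of Lama3, Itgb4, Col17a1 and Dst lie above 0, before adjustment over all genes, and the other 5 include 0.

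**Figure D3:**
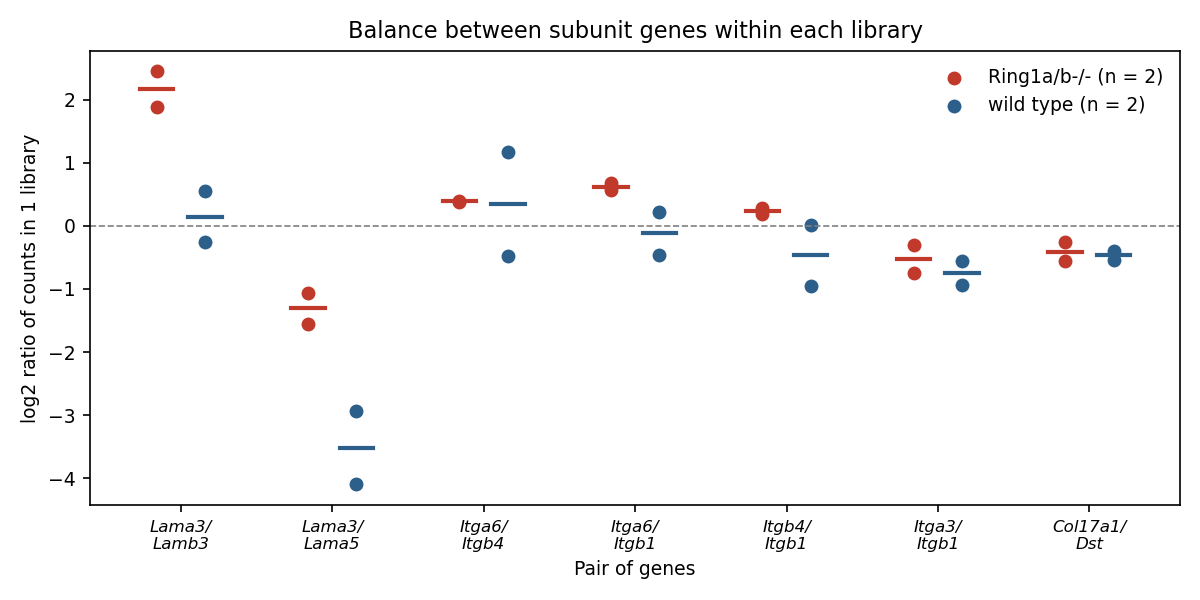
Log2 ratio of the counts of a pair of genes within each library, with Ring1a/b-/- in red and wild type in blue, points for libraries and bars for means of 2 libraries. Ratios with Lama3 on top are apart between the groups, by 2.03 for Lamb3 and 2.21 for Lama5 below it, while the Itga6 to Itgb4 and Col17a1 to Dst ratios overlap.

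As a group, 0 of the 9 genes were called over all genes tested, where edgeR called 0.0533% of genes as higher and 0.00761% as lower. At an unadjusted p under 0.05, 4 of 9 were higher in Ring1a/b-/- (Lama3, Itgb4, Col17a1 and Dst), against 8.47% of all genes tested, and 0 were lower, against 8.16%. The same 4 genes were higher without overlap between the groups, against 24.8% of all genes, and 0 were lower without overlap, against 22.3%. The log2 fold change was above 0 for 8 of 9, against 52.3% of all genes. The median log2 fold change was 0.51 over the 9 genes and 0.40 without Lama3, beside 0.03 over all genes tested. Leaving out a library, which leaves 1 library in a genotype, gave a median log2 fold change of the 9 genes of 0.359 to 0.56.

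DESeq2, run on the same counts, called 3 of the 9 genes as higher and 0 as lower, where it called 6.21% of genes as higher and 6.14% as lower. The higher ones were Lama3 (adjusted p = 1.37e-06), Dst (adjusted p = 0.00427) and Col17a1 (adjusted p = 0.0135), and Itgb4 had a DESeq2 adjusted p of 0.0658. In the authors' deposited table, whose marks need a size of 1 or more on the log2 scale, Lama3 was marked as higher and the other 8 genes were not marked, where 7.35% of genes are marked higher and 1.29% lower. The significance threshold of these marks is not the one used here. They cover 1066 higher genes, where DESeq2 called 901 with no size cut, so the shares are not at like thresholds. That same authors' deposited table gives log2 fold changes of 2.21 for Lama3, 0.64 for Col17a1, 0.58 for Dst and 0.57 for Itgb4. Both come from the same counts and are no independent check. Limma-voom called 0 of the 9 (4 at an unadjusted p under 0.05, against 1956 of all 13134 genes).

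The 9 genes are long, and long genes differed between the genotypes as a class. Transcript lengths were not used here; the length available was the span of a gene on the genome, introns included, which is 401 kb for Dst, 250 kb for Lama3, 71.5 kb for Itga6 and 32.4 to 49.5 kb for the other 6, beside a median of 22.7 kb over all genes tested. Over 13073 tested genes with a span, cut into 10 bins of equal size, the median log2 fold change was -0.14 in the shortest bin, 0.03 and 0.07 in the seventh and eighth, 0.17 in the ninth and 0.32 in the longest. The share of genes higher in Ring1a/b-/- without overlap was 19% in the shortest bin and 41% in the longest. Across genes, which are not independent replicates, log2 fold change and span had a Spearman rho of 0.178, and 0.27 over 9573 genes with a mean of at least 20 CPM. Between replicates of a genotype, the same rho was -0.0685 for Ring1a/b-/- and -0.0323 for WT libraries.

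Set beside genes of like span, the 9 genes kept different distances. Lama3 stood 1.89 above the median log2 fold change of the longest bin, higher than 90.1% of its genes, and 97.7% of those with a mean of at least 20 CPM. Dst, in the same bin, stood 0.27 above that median and higher than 63.7% of the genes. Col17a1 and Itgb4 stood 0.57 and 0.54 above the medians of the eighth and seventh bins, higher than 78.1% and 78.4% of the genes there. Itga6 stood 0.34 above the median of the ninth bin, and Lamb3, Itga3 and Lama5 stood 0.23, 0.10 and 0.06 above theirs. Itgb1 alone of the 9 lay below the median of its bin, at a difference of -0.20.

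Removing a smooth trend on span from each library shifted the median of all genes to -0.23, so values are given relative to that median. Lama3 then stood 1.75 above it, Col17a1 0.60, Itgb4 0.59, Itga6 0.38, Lamb3 0.24, Itga3 0.16, Lama5 0.08 and Dst 0.03, with Itgb1 at -0.17. Dst, which stood 0.55 above the median of all genes without that correction, thus lay at the level of the other genes with it. On its own scale the log2 fold change of Dst was then -0.20 (edgeR adjusted p = 0.628). Of the 9 genes, 1 had an unadjusted p under 0.05, Lama3 (edgeR adjusted p = 0.107). Of all 13073 genes in this fit, 2882 did, so the 9 genes were not above the share over all genes. With a trend on span and abundance together removed, Dst stood 0.47, Lama5 0.46 and Lama3 1.87 above the median of all genes. In that fit edgeR called 0 of the 9. At an unadjusted p under 0.05 there were 5 of the 9, and 1318 of all 13073 genes. The place of Dst among the higher genes thus depended on how length was treated. Of the 9 genes, all but Lamb3 and Itgb1 stood above the median of all genes under both corrections. Lama3, Col17a1 and Itgb4 stood 0.59 or more above it in each.

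**Figure D4:**
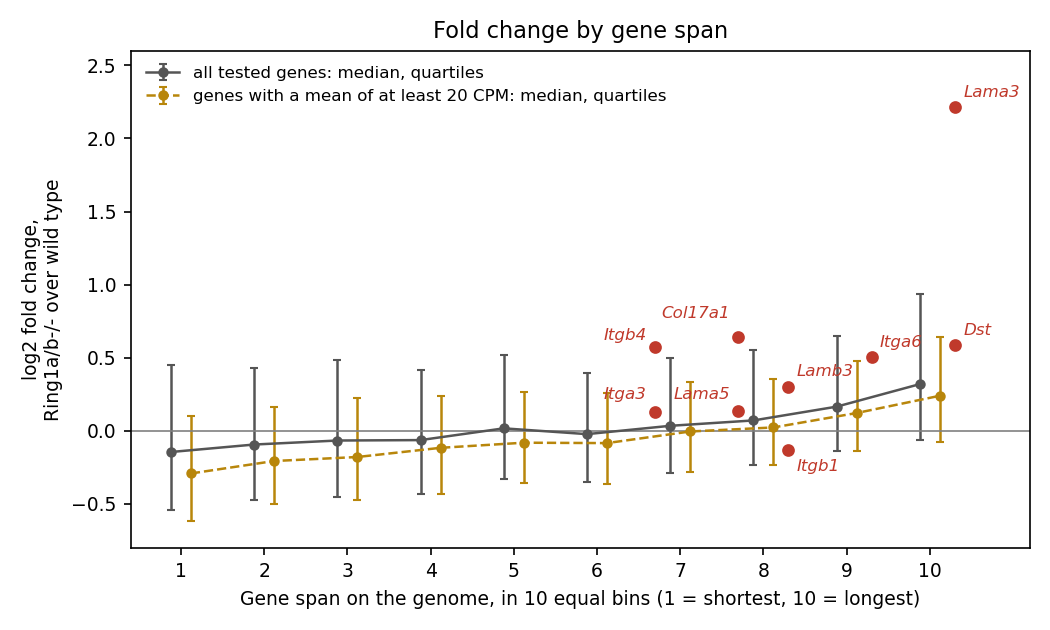
Log2 fold change of Ring1a/b-/- over wild type by gene span, in 10 bins of equal size of tested genes. Grey and gold points give the median with quartiles over all tested genes and over genes with a mean of at least 20 CPM, and red points give the 9 genes in their bins; the grey median is -0.14 in bin 1 and 0.32 in bin 10, where Lama3 lies at 2.21 and Dst at 0.58.

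Other genes of the same structures were read from lists chosen for their role. Limma-voom called 0 genes of any of the 5 lists, and edgeR also called 0 of each. Of 5 matched hemidesmosome partners, 0 had an unadjusted p under 0.05 and DESeq2 called 0. Plec, which encodes plectin, stood at 378 ± 36.8 CPM in Ring1a/b-/- and 348 ± 34.3 CPM in WT libraries, with a log2 fold change of 0.12 ± 0.18. The count ratio of Dst to Plec was 0.67 and 0.711 in Ring1a/b-/- and 0.557 and 0.449 in WT libraries. The median log2 fold change was 0.32 in the span bin of Dst and 0.07 in that of Plec. The part of the span trend in this ratio was not tested. The basal keratins, to which hemidesmosomes are tied, stood at 335 ± 41.3 CPM in Ring1a/b-/- and 397 ± 46.5 CPM in WT libraries for Krt5, and at 227 ± 27 CPM in Ring1a/b-/- and 291 ± 1.42 CPM in WT libraries for Krt14. Dag1, the laminin receptor dystroglycan, stood at 224 ± 35.7 CPM in Ring1a/b-/- and 278 ± 8.49 CPM in WT libraries. The median log2 fold change of these partners was -0.25.

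Of 7 other laminin chains, 5 were tested, 0 had an unadjusted p under 0.05 and DESeq2 called 0. Their median log2 fold change was 0.29, and 0.36 relative to the medians of their span bins. Lamb1 and Lamc1, chains of the ubiquitous laminins and partners of Lama5, had log2 fold changes of -0.02 ± 0.22 and 0.56 ± 0.27 (edgeR adjusted p = 0.987 and 0.354). Lamc1 stood at 111 ± 25.7 CPM in Ring1a/b-/- and 75.6 ± 6.9 CPM in WT libraries. Of 15 other integrin subunits, 13 were tested; 2 were higher at an unadjusted p under 0.05, Itga5 and Itgb5, both of which DESeq2 called, where 8.47% of all genes were higher by the first rule and 6.21% by DESeq2. The median log2 fold change of these subunits was 0.44; relative to the median of each gene's span bin it was 0.12, with 7 of 13 above their bin's median. Itga5, the alpha subunit of the fibronectin receptor, stood at 54.7 ± 5.17 CPM in Ring1a/b-/- and 14.5 ± 10.2 CPM in WT libraries, a log2 fold change of 1.91 ± 0.61 (edgeR adjusted p = 0.181). Itgb5 stood at 102 ± 4.74 CPM in Ring1a/b-/- and 64.1 ± 0.574 CPM in WT libraries, and Itgb6 at 80.5 ± 7.31 CPM in Ring1a/b-/- and 105 ± 54.5 CPM in WT libraries.

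Of 18 other basement membrane components, 15 were tested; 5 were higher and 3 lower at an unadjusted p under 0.05, and DESeq2 called 4 higher and 3 lower. The shares over all genes were 8.47% higher and 8.16% lower by the first rule and 6.21% and 6.14% by DESeq2. The median log2 fold change of these components was 0.29, and 0.11 relative to the medians of their span bins. Hspg2, which encodes perlecan, stood at 399.8 ± 33.9 CPM in Ring1a/b-/- and 273 ± 16.5 CPM in WT libraries, a log2 fold change of 0.55 ± 0.18 (edgeR adjusted p = 0.181), and Agrn, which encodes agrin, at 264 ± 5.85 CPM in Ring1a/b-/- and 215 ± 97.9 CPM in WT libraries. Col4a3, a collagen IV chain, had 0 counts in both Ring1a/b-/- libraries and 17 and 20 in the WT libraries. Taking 3 counts summed over both Ring1a/b-/- libraries as the detection floor, it was at least 28.4-fold lower in Ring1a/b-/- (edgeR adjusted p = 0.149). Frem1, which encodes an adhesion protein of the basement membrane, had 0 and 2 counts in Ring1a/b-/- and 26 and 35 in WT libraries. The ratio of WT over Ring1a/b-/- was 70.3, with a 95% counting interval of 18.7 to 594 that leaves out the spread between libraries. The difference of Frem1 did not pass edgeR's test (adjusted p = 0.149).

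Of 17 genes listed as integrin adapters, 16 were tested. At an unadjusted p under 0.05, 2 were lower, Ilk and Actn4, against 8.16% of all genes. DESeq2 called Ilk as lower, against 6.14%. The median log2 fold change of the adapters was -0.08, and -0.21 relative to the medians of their span bins. Ilk, which encodes integrin-linked kinase, stood at 140 ± 13 CPM in Ring1a/b-/- and 199 ± 5.07 CPM in WT libraries, a log2 fold change of -0.50 ± 0.20 (edgeR adjusted p = 0.247). Actn4, an actin crosslinker, stood at 340.1 ± 17.5 CPM in Ring1a/b-/- and 515 ± 172 CPM in WT libraries, a log2 fold change of -0.60 ± 0.24 (edgeR adjusted p = 0.259). Fermt1, which encodes the epithelial kindlin, stood at 181 ± 26.1 CPM in Ring1a/b-/- and 173.5 ± 24.6 CPM in WT libraries.

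Among the 9 genes, Itgb4, Dst and Col17a1 had the most similar profiles over the 4 libraries. On log2(CPM + 1) centred per gene, the root mean square difference was 0.111 for Itgb4 and Dst, 0.117 for Itgb4 and Col17a1 and 0.123 for Col17a1 and Dst, the 3 lowest of the 36 pairs. Lama3 was far from every other, at 0.901 from Col17a1, its nearest. The profiles were centred but not scaled, so this distance includes the larger size of the Lama3 difference. Of 9612 genes with a mean of at least 20 CPM, the profiles nearest to Lama3 were those of Psmb8 (0.104), Ankrd44 (0.136) and Chl1 (0.174). Psmb8, for example, stood at 63.8 and 68 CPM in Ring1a/b-/- and 19.4 and 6.67 CPM in WT libraries. The profiles nearest to Dst were those of Smarca2 (0.0203), Cpped1 (0.0223) and Peg3 (0.0326). With 4 libraries many genes share such a profile, and the values describe likeness only.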

How the data were processed

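Build mm9 and, among other tools, DESeq2, HTSeq 0.7.2, Picard 1.62 and TopHat2 2.1.1 are listed, per the submitters' processing notes; their roles, the gene annotation and the use of strand are unstated in these sources, so reads of overlapping or antisense neighbours cannot be told apart. The deposited count table holds whole-number counts per gene symbol. The normalized table that the authors deposited holds a signal, each count divided by its library's constant. The authors' deposited comparison table gives, per the file headers, log2 fold changes, a Wald score and p-values.

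The 2 Ring1a/b-/- and 2 WT libraries were compared with edgeR 4.0.16 under R 4.3.3 (filterByExpr, TMM, robust glmQLFit, glmQLFTest, genotype as the only term), checked on simulated data; SE was taken as the fitted log2 fold change, without its sign, divided by the root of the F statistic. Alternatives used DESeq2 1.42.0, limma 3.58.1, other scalings and filters, left-out libraries, a replicate block and trends removed by loess on gene span. The design had foreseen transcript lengths; only spans from RefSeq GRCm38.p6 were used, so levels are not compared between genes. The spans matched 23225 of 23377 symbols, by symbol or by a unique synonym.

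Context genes were named by a rule: called genes, the 2 lowest p-values and the 2 highest means per list. Members, lists and tests were chosen with earlier results of these data known. Counting intervals and detection floors leave out PCR duplication and the spread between animals. A gene of the context lists is not reported here. Peaks were not analysed here.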

Additional observations from a re-analysis of the deposited data

How the results depend on the processing

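Under 13 other settings, Lama3, Itga6, Itgb4 and Col17a1 kept a log2 fold change above 0. Lama3 ranged from 1.52 to 2.99 and was called by edgeR with no low-count filter (2.22), by DESeq2 (2.21), with the replicate block (2.32) and without WT replicate 1 (2.99), and not under the other 9; leaving out a library gave 1.69 to 2.99. DESeq2 also called Col17a1 (0.64) and Dst (0.583). Reversed estimates, all below the threshold, were Itga3 without Ring1a/b-/- replicate 2 (-0.0248), Itgb1 without WT replicate 2 (0.145), Lama5, Itga3 and Dst with the length trend removed (-0.157, -0.0751 and -0.199), where the median of all genes moved to -0.233 and all 3 lay above it, and Lamb3 with the length and abundance trend removed (-0.0578). Leaving out a library gave ranges of -0.0248 to 0.256 for Itga3, -0.371 to 0.145 for Itgb1, 0.359 to 0.808 for Itgb4, 0.5 to 0.78 for Col17a1, 0.512 to 0.645 for Dst, 0.0636 to 0.56 for Lamb3 and 0.0155 to 0.226 for Lama5.

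The number of the 9 genes called was 0, but 1 with no filter, 1 with the replicate block and 3 with DESeq2, and 0 to 1 without a library. Their median log2 fold change, 0.51, was 0.583 with upper-quartile factors, 0.579 with limma-voom, 0.585 with the replicate block, 0.0068 with the length trend removed (0.239 above the median of all genes, against 0.472 in the reported fit), 0.423 with the length and abundance trend removed, and 0.359 to 0.56 without a library. Over all genes edgeR called 7 higher and 1 lower. With no filter these were 455 and 347, with at least 1 CPM in 2 libraries 1 and 0, with DESeq2 901 and 891, with limma-voom 0 and 0 (1956 genes at an unadjusted p under 0.05), with the replicate block 213 and 203, with the length trend removed 1 and 0, with both trends removed 1 and 0, and without a library 0 to 43 and 0 to 17. The cause of these differences was not tested.

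Same-numbered libraries did not deviate together (correlation of deviations -0.141 across genes). The labels do not say whether the numbers pair the libraries, and a correlation across genes cannot settle it. A crossed pairing, added after the data were seen, called 8 higher and 0 lower genes and 0 of the 9. The lowest counts among the 9 genes were 61 for Lama3 and 73 for Lamb3, both in WT replicate 2.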

Other observations

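Several basement membrane genes named here were chosen after their values were seen. Col7a1, which encodes the collagen of the anchoring fibrils beneath hemidesmosomes, had 135 and 496 counts in Ring1a/b-/- and 0 and 28 counts in WT libraries, a log2 fold change of 3.23 ± 1.26 that did not pass edgeR's test (adjusted p = 0.25). Npnt, which encodes the integrin ligand nephronectin of the follicle basement membrane, stood at 48.9 ± 21.5 CPM in Ring1a/b-/- and 9.03 ± 7.1 CPM in WT libraries (SD, n = 2 each; edgeR adjusted p = 0.171). Fras1 and Frem2, which encode proteins of the Fraser complex together with Frem1, stood at 107 ± 12.5 and 86 ± 12.5 CPM in Ring1a/b-/- and at 63 ± 4.3 and 41 ± 4.8 CPM in WT libraries. Their log2 fold changes were 0.77 ± 0.27 and 1.07 ± 0.32 (edgeR adjusted p = 0.204 and 0.168), opposite in sign to that of Frem1.

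The collagen IV chains Col4a1 and Col4a2, neighbours that share a promoter region, stood at 163 ± 2.68 and 109 ± 2.36 CPM in Ring1a/b-/- and at 234 ± 12.4 and 149 ± 14 CPM in WT libraries. Their log2 fold changes were -0.52 ± 0.18 and -0.46 ± 0.21 (edgeR adjusted p = 0.212 and 0.334). The fibroblast, endothelial and mural marker sums were also lower in both Ring1a/b-/- libraries, and their part in these values was not tested.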
